A study of Mus musculus with 6 samples.

Results

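The genes described here are 9 that encode tight junction proteins of epithelia: the claudins Cldn1, Cldn3, Cldn4, Cldn6, Cldn7 and Cldn8, the MARVEL-domain proteins Ocln (occludin) and Marveld2 (tricellulin), and the scaffold Tjp3 (ZO-3). Every probe set whose only gene symbol in the array annotation is one of these names was taken, which gave 16 of the 45101 probe sets and 9 of the 18193 genes that have a probe set of their own. The study measured RNA of whole mouse kidneys at embryonic day 12.5 on Affymetrix whole-genome arrays. There were 3 wild-type and 3 Ret-deficient biological replicates, all of strain C57BL/6, with 1 array per replicate. Ret is the receptor through which GDNF drives growth and branching of the ureteric bud, and the groups were compared to find transcripts that differ without it. Titles and genotype fields call the kidneys Ret-deficient, while the source field names a Ret-knockout pregnant female. The sources used here name neither the allele nor the litters nor how many embryos make up a sample, so the p values measure the spread between these samples only.

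Tight junctions seal the space between neighbouring epithelial cells near their apical side. Claudins form the sealing strands and set which ions can pass, occludin and tricellulin join the strands along cell borders and where 3 cells meet, and ZO proteins tie the strands to actin. In the early kidney the ureteric bud is a polarized epithelium with such junctions, while the mesenchyme around it is not an epithelium until it is induced to form nephrons.

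The values are MAS5 signals, linear intensities that the authors scaled to a common trimmed mean. The median signal of an array lay between 258.9 and 351.6, and the brightest of 27 Bacillus subtilis control probe sets, used as a gauge of background, read 97.2 to 186.9. The main Ret probe set read 10193 to 13315 on the wild-type arrays and 93.3 to 479.8 on the Ret-deficient arrays, the lowest of these not above the control of its array. Over the whole array 0 of 22519 tested probe sets, or 0%, reached the threshold of 0.05 for limma's adjusted p, and 1208 had an unadjusted p under 0.05. Ret itself had a log2 difference of -5.43 and a limma adjusted p of 0.299. With 3 arrays against 3 the exact permutation test cannot give a p below 0.1. Differences are Ret-deficient minus wild-type on the scale log2(signal + 16), which understates the change of dim probe sets, and each gene is represented by its probe set with the highest mean signal.

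Wild-type replicate 1 stood apart in measures of its RNA and of its tissue. The ratio of 3 prime to 5 prime signal of the beta-actin control probe sets was 10.7 there and 3.88 to 5.21 on the other arrays. The sum of 5 gonad markers was 2751 there and 473 to 794.8 on the others, with 1 of the 5 not above the control there. The sum of 4 mesothelium markers was 2164 there and 145.7 to 949.7 on the others, with Upk3b (1469.9) and Lrrn4 (499.8) above the control and Upk1b and Msln not. The part of these features in the junction values of that array was not tested, and the counts are also given without it.

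Of the 16 probe sets of these genes 10 were bright enough to be tested and none of the 10 passed the threshold, in a comparison where no probe set of the array did. At the representative probe sets 8 of the 9 genes had a negative difference, with a median of -1.52 (-1.59 over the 8 genes that passed the filter on low signals), while the median over 11592 tested genes was 0.0030. The difference was at least 2-fold lower in 5 genes (Cldn3, Cldn6, Cldn7, Cldn8 and Ocln), as in 1.23% of tested genes. Without Ret-deficient replicate 1 this count was 0, with Cldn3 at -0.95, Cldn7 at -0.81, Ocln at -0.63, Cldn6 at -0.62 and Cldn8 at 0.10, against 1.18% of tested genes. Among the 8 genes that passed the filter on low signals it was 5 without wild-type replicate 1, against 1.29%, and 3 without both replicates numbered 1 (Cldn3, Cldn7 and Ocln), against 1.1%. The limma adjusted p of the 8 tested genes lay between 0.884 and 0.975. Ret-deficient replicate 1 was the lowest of the 6 arrays in 7 genes, and in 4 of them its signal was not above the bacterial control. That array also had the lowest median signal of the 6 (258.9), and the share of tested genes lowest on it is not given. The 3 Ret-deficient values all lay below the 3 wild-type values in 1 gene, Cldn3, and 5.75% of tested genes had this pattern.

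**Figure D1:**
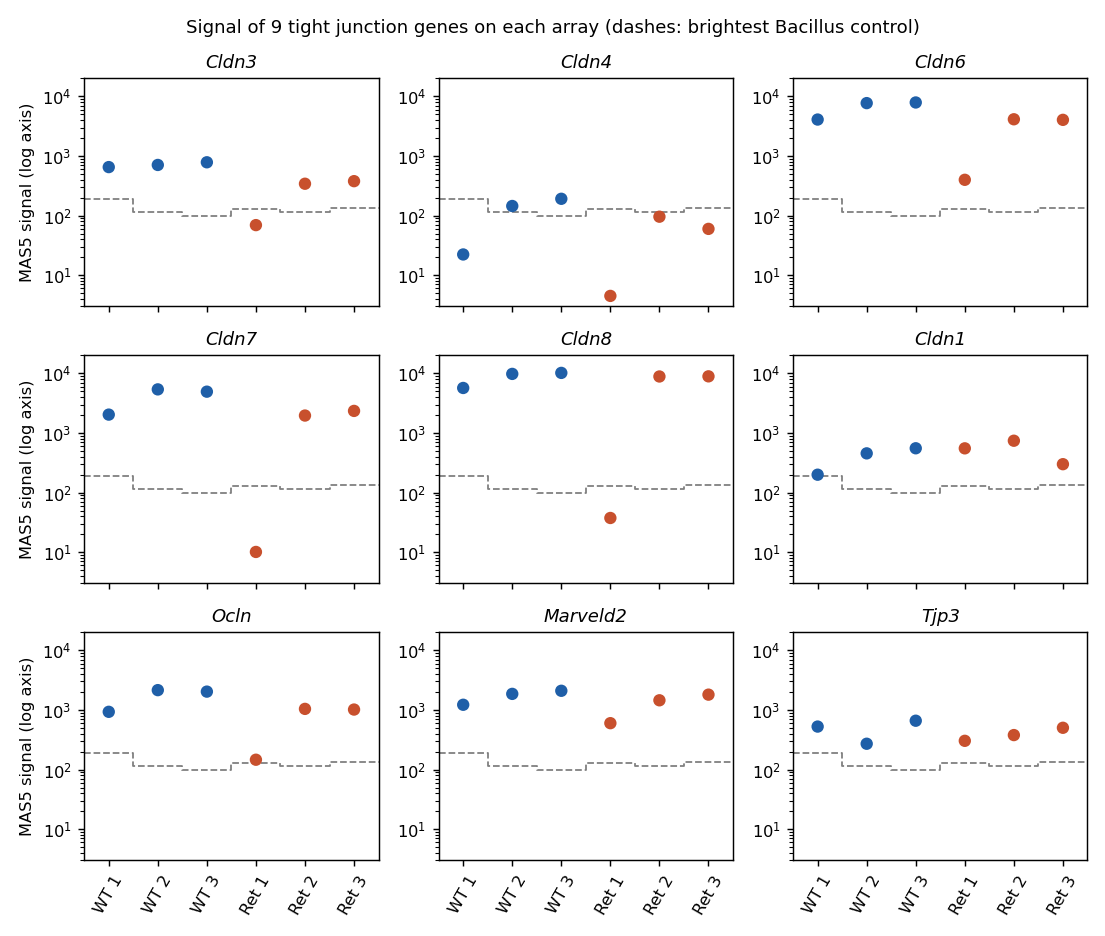
MAS5 signal (log axis) of the representative probe set of each of the 9 genes on the 3 wild-type and 3 Ret-deficient arrays, numbered by replicate, with dashes at the brightest bacterial control of each array (WT, wild-type; Ret, Ret-deficient). Ret-deficient replicate 1 is the lowest array in 7 of the 9 genes, and Cldn3 is the gene whose groups do not overlap.

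Cldn3 encodes a sealing claudin of many simple epithelia. Its brightest probe set, 1460569_x_at, read 651.5, 707.5 and 784.4 in wild-type replicates 1, 2 and 3. In the Ret-deficient replicates it read 69.3, 342.5 and 378.4, the first of these not above the control of 128.2 on its array. The groups did not overlap, and the means were 714.5 ± 66.7 and 263.4 ± 169.1 (SD, n = 3 per group). The log2 difference was -1.67 (SE 0.57), with an unadjusted p of 0.024 and an adjusted p of 0.884 in limma, and p was 0.1, the smallest possible, in the exact permutation test (two-sided). An unadjusted p under 0.05 in this direction was found in 2.54% of tested genes. Without Ret-deficient replicate 1 the difference was -0.95, and the groups still did not overlap.

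The other Cldn3 probe sets gave the same order of group means; an x in the name marks probe sets that can also pick up related transcripts. At 1434651_a_at the wild-type arrays read 303.3, 795.2 and 663.1 and the Ret-deficient arrays 109.9, 282.8 and 257.6, again without overlap (log2 difference -1.37, SE 0.46, limma adjusted p = 0.871). The lowest of these was not above its control, and wild-type replicate 1 stood closer to the Ret-deficient arrays than to the other wild-type arrays. The dimmer 1451701_x_at read 159.9, 561.3 and 330.7 against 30.9, 243.2 and 261.5, with overlap. The dimmest, 1426332_a_at, was above the control on 1 of 6 arrays only.

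Cldn6 is a claudin of embryonic epithelia. Its only probe set, 1417845_at, read 4088, 7710 and 7902 in the wild-type replicates and 398.7, 4131 and 4039.8 in the Ret-deficient replicates, all above the control. The groups overlapped because Ret-deficient replicate 2 lay just above wild-type replicate 1, the lowest wild-type array. The means were 6567 ± 2149 and 2856 ± 2129 (SD, n = 3 per group), a log2 difference of -1.72 (SE 0.90) with a limma adjusted p of 0.938. In Ret-deficient replicates 2 and 3 the mean was 52.3% of that in wild-type replicates 2 and 3, and in Ret-deficient replicate 1 the signal was 6.07% of the wild-type mean.

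Cldn7, which lines the lateral membrane as well as the junction in many epithelia, read 2032, 5385 and 4929 in the wild-type replicates. It read 10.1, 1959.8 and 2344.5 in the Ret-deficient replicates, the lowest of which was far under the control of 128.2. Ret-deficient replicate 3 lay above wild-type replicate 1, so the groups overlapped. The means were 4115 ± 1819 and 1438 ± 1252 (SD, n = 3 per group). The log2 difference was -2.94 with an SE of 1.68, the most negative of the 8 tested genes, and the limma adjusted p was 0.938. Without Ret-deficient replicate 1 it was -0.81.

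Cldn8, a barrier claudin of the collecting duct in the adult kidney, had another pattern. Its signal was 5686, 9791 and 10177 in the wild-type replicates and 37.5, 8860 and 8909 in the Ret-deficient replicates. Ret-deficient replicate 1 was thus under the control while the other Ret-deficient arrays stood at 89.0% of the mean of wild-type replicates 2 and 3, above wild-type replicate 1. The log2 difference was -2.36 (SE 1.92, limma adjusted p = 0.950), and without Ret-deficient replicate 1 it was 0.10, with the opposite sign.

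Cldn4, which lies beside Cldn3 in the genome and encodes a claudin of the collecting duct, was near background. It has 1 probe set, which read 22.3, 145 and 191.5 in the wild-type replicates and 4.5, 95.9 and 59.9 in the Ret-deficient replicates. Only wild-type replicates 2 and 3 were above the control, so no fold is given, and the probe set did not pass the filter on low signals. Cldn1, best known from the skin barrier, was the 1 gene with a positive difference. At 1437932_a_at it read 199.5, 454.9 and 553.9 against 552.3, 741 and 299.5, a log2 difference of 0.41 (SE 0.46, limma adjusted p = 0.958). The groups overlapped widely, and without wild-type replicate 1 the difference was -0.01. Its 3 other probe sets were not above the control on 5, 5 and 6 of the 6 arrays.

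Occludin was the first integral protein of the tight junction to be described. Its brighter probe set, 1440220_at, read 930.1, 2149 and 2029 in the wild-type replicates and 146.2, 1042 and 1015 in the Ret-deficient replicates. All 6 values were above the control, and the groups overlapped through wild-type replicate 1 alone. The means were 1703 ± 672 and 734.4 ± 509.6 (SD, n = 3 per group), a log2 difference of -1.52 (SE 0.77, limma adjusted p = 0.938). Ret-deficient replicates 2 and 3 averaged 49.2% of wild-type replicates 2 and 3, and Ret-deficient replicate 1 stood at 8.59% of the wild-type mean. The dimmer probe set 1448873_at read 595.8, 700.7 and 425.9 against 91, 640.3 and 232.1 (log2 difference -1.16, SE 0.62, limma adjusted p = 0.938), so here Ret-deficient replicate 2 was in the wild-type range.

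Marveld2 and Tjp3 differed less. Marveld2, whose gene neighbours Ocln, read 1221.5, 1859.6 and 2096 in the wild-type replicates and 599.9, 1452 and 1805.5 in the Ret-deficient replicates. Its log2 difference was -0.52 (SE 0.43, limma adjusted p = 0.950), and -0.06 without Ret-deficient replicate 1. Tjp3, the ZO protein most restricted to epithelia, read 526.1, 271 and 659.4 against 303.4, 378.8 and 502.1. The Tjp3 groups overlapped throughout, with a log2 difference of -0.23 (SE 0.35, limma adjusted p = 0.975), and Ret-deficient replicate 1 was not below all wild-type arrays. For the genes other than Cldn3 p lay between 0.2 and 0.7 in the exact permutation test (two-sided).

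Each gene was also set against its own wild-type mean, array by array, with values under the control used as read. The median of the 9 genes stood at -3.09 in Ret-deficient replicate 1, -0.26 in replicate 2 and -0.52 in replicate 3, and at -0.62, 0.28 and 0.34 in wild-type replicates 1, 2 and 3. The median in Ret-deficient replicate 1 is the value of Cldn3 and that in replicate 3 the value of Cldn4, both not above the control, so these are approximate. With every value under the control of its array raised to that control, a setting added with the values known, the Ret-deficient medians were -2.34, -0.51 and -0.34. Wild-type replicate 1 was the lowest wild-type array in 8 of the 9 genes, all but Tjp3, and the share of tested genes is not given. The gene nearest to this median profile was Ocln, with a root mean square difference of 0.20 log2 units over the 6 arrays, followed by Cldn6 (0.37) and Cldn3 (0.43). With values raised to the control the nearest were Cldn3 (0.37), Marveld2 (0.42) and Ocln (0.44). Cldn8 and Cldn7, whose values in Ret-deficient replicate 1 were under the control, stood at 1.73 and 1.70 as read and at 1.47 and 1.01 with values raised. Cldn1 stood at 1.58 as read and 1.34 with values raised.

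**Figure D2:**
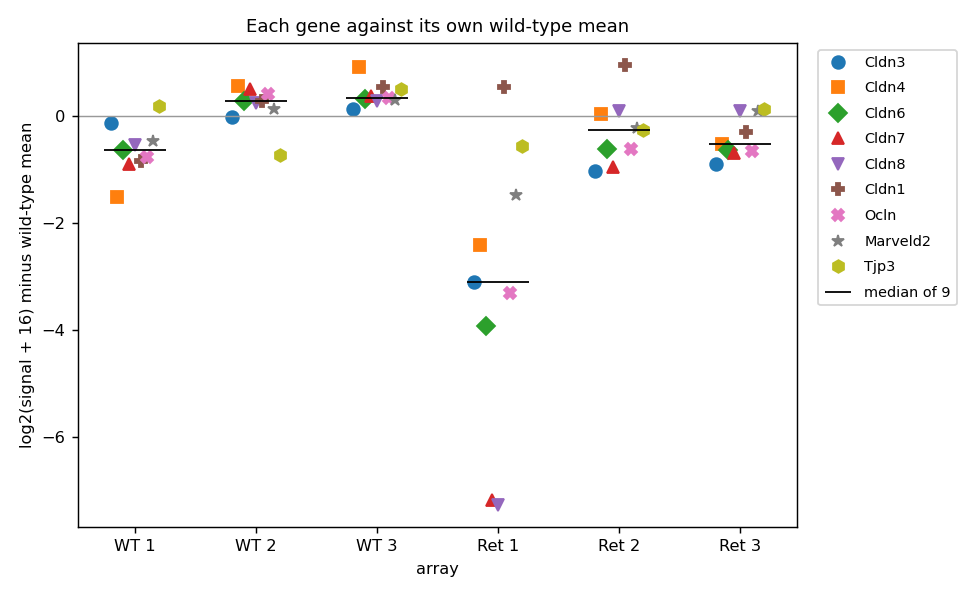
Difference of each of the 9 genes from its own wild-type mean (log2 of signal + 16) on each array, with the median of the 9 as a black bar and values under the control plotted as read. The median is -3.09 in Ret-deficient replicate 1, while Ret-deficient replicates 2 and 3 stand at -0.26 and -0.52 and wild-type replicate 1 at -0.62.

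Of the arrays left out singly, wild-type replicate 1 moved the count of genes without overlap most. Ret-deficient replicate 1 moved the median difference most. Without wild-type replicate 1 the groups did not overlap in 7 of the 9 genes (Cldn3, Cldn4, Cldn6, Cldn7, Cldn8, Ocln and Marveld2), against 11.3% of tested genes. With both replicates numbered 1 left out the count was again 7, against 18.3%. Both counts include Cldn4, which did not pass the filter on low signals, while the percentages cover tested genes only. Without Ret-deficient replicate 1 alone the count was 1, Cldn3, against 10.3%. The median difference was -1.73 without wild-type replicate 1, -0.93 without both arrays and -0.24 without Ret-deficient replicate 1. The last of these is the value of Cldn4, which was near background, so it is approximate. These counts describe 2 or 3 arrays a group and were not tested. Leaving out an array cannot lower such a count. Wild-type replicate 1 was the lowest wild-type array in 8 of the 9 genes, and the share of tested genes is not given. The percentages are thus not a like comparison for the counts without that array.

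Markers of the ureteric epithelium were set beside the junction genes. Of 13 such markers 12 were measured and 11 tested, and all 11 had a negative difference, with a median of -1.01 and 0 past the threshold. Their summed signal was 64999 to 85714 on the wild-type arrays, 9864 in Ret-deficient replicate 1, and 65855 and 55987 in replicates 2 and 3. In Ret-deficient replicate 1 the markers Cdh1, Calb1 and Wnt7b were not above the control, Wnt7b being so on all 6 arrays, and the other 9 measured markers were above it. In whole kidneys fewer epithelial cells and less RNA per cell cannot be told apart, and the part of epithelial content in the junction values was not tested. The 7 nephron progenitor markers had a median difference of 0.01.

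Without the replicates numbered 1, the junction genes and these markers could be set side by side as percentages of wild-type replicates 2 and 3. Cldn7 stood at 41.7%, Cldn3 at 48.3%, Ocln at 49.2% and Cldn6 at 52.3%, the 4 lowest of the 8 genes that passed the filter. Marveld2 at 82.4%, Cldn8 at 89.0%, Tjp3 at 94.7% and Cldn1 at 103% were higher. These are the representative probe sets. The other tested probe set of Ocln, 1448873_at, stood at 77.4%, and that of Cldn3, 1434651_a_at, at 37.1%. Among the markers Tfap2b (44.6%) and Wfdc2 (50.1%) were in the range of these 4 lowest junction genes. Gata3 (57.0%), Calb1 (58.0%) and Cdh1 (60.8%) lay just above that range, and Krt8 (77.8%), Epcam (83.6%), Krt18 (86.6%), Spint2 (105%), Krt19 (106%) and Wnt9b (141%) further above it. The median over these 8 junction genes was 67.3%, and over all tested genes 101%. With 2 arrays a group this is a description of 4 arrays. Which markers lay in the range depended on leaving out wild-type replicate 1. Against the mean of all 3 wild-type arrays Cldn3 stood at 50.5%, Cldn7 at 52.3%, Ocln at 60.4% and Cldn6 at 62.2%. Gata3 (60.4%) and Krt19 (61.3%) then lay in the range of these genes, Tfap2b (43.4%) below it, and Wfdc2 (67.5%) and the other tested markers above it.

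**Figure D3:**
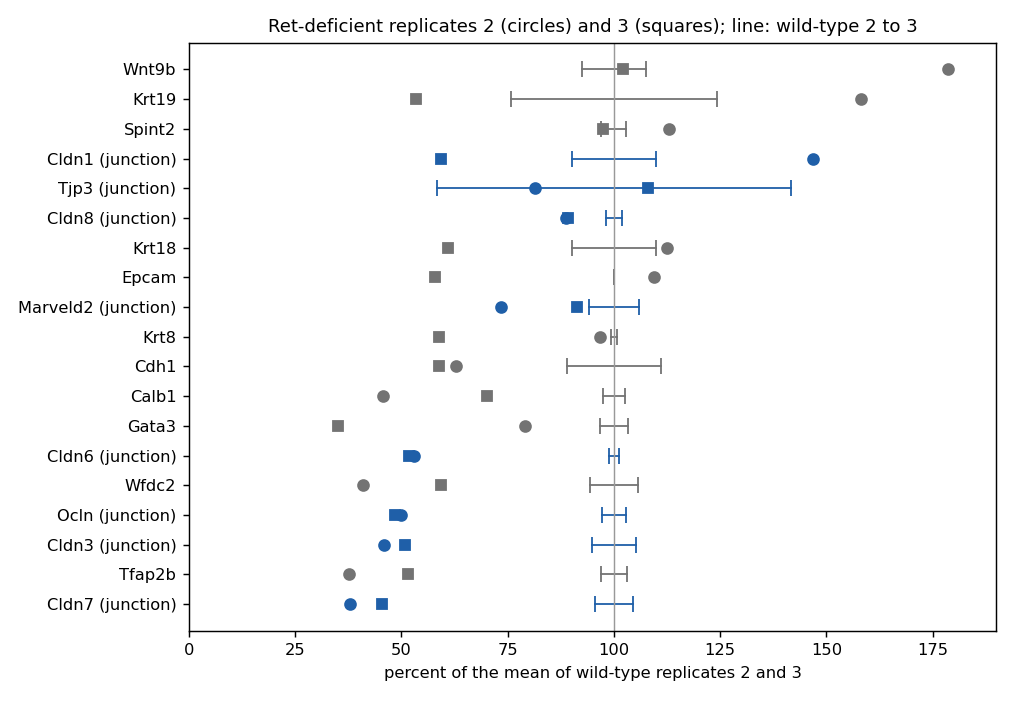
Signal of Ret-deficient replicates 2 (circles) and 3 (squares) as a percentage of the mean of wild-type replicates 2 and 3, for the 8 junction genes that passed the filter on low signals (blue) and the 11 tested ureteric epithelium markers (grey), ordered by mean, with a line for the span of the 2 wild-type arrays. At the representative probe sets Cldn3, Cldn6, Cldn7 and Ocln lie between 41.7% and 52.3% on average, and Cldn8 at 89.0%.

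The remaining claudins were set beside them. Of 18 others 14 had a probe set of their own and 4 passed the filter on low signals, 3 with a negative and 1 with a positive difference, none past the threshold, with a median of -0.17. Cldn12, the claudin of this list with the highest mean, read 16044, 15441 and 16008 in the wild-type replicates and 13875, 11099.8 and 14049.6 in the Ret-deficient replicates. Its groups did not overlap, and the log2 difference was -0.29 (SE 0.16, limma adjusted p = 0.938). Cldn9, which neighbours Cldn6 in the genome, read 4334, 11315 and 10227 against 8449, 9859.6 and 14260.4, a difference of 0.41 (SE 0.41). Ret-deficient replicate 1 was thus in the wild-type range for Cldn9 and at 6.07% of the wild-type mean for Cldn6. Cldn5, the endothelial claudin, had -0.54 (SE 0.49) and its highest value, 8082.5, in wild-type replicate 1. Cldn11 had -0.04 (SE 0.15).

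Of 21 other proteins of the tight junction, among them adhesion molecules, scaffolds and cingulins, 19 were measured and 17 tested. There were 11 negative and 6 positive differences, with a median of -0.11 and 0 past the threshold. Magi3, a membrane-associated scaffold, read 11185, 6841 and 7050.4 in the wild-type and 4688, 5743 and 6429 in the Ret-deficient replicates, without overlap (log2 difference -0.55, SE 0.25, limma adjusted p = 0.924). Patj, a scaffold of the Crumbs polarity complex, read higher without overlap, at 2186, 2137 and 2007 against 2291, 2967 and 2579.7 (log2 difference 0.30, SE 0.17, limma adjusted p = 0.938), as did 6.03% of tested genes. Its other tested probe sets overlapped between the groups, with differences of 0.36 and, in the opposite direction, -0.70. The other tested probe sets of Magi3 also overlapped, with differences of -0.30 and 0.09. Ildr1 and Marveld3 lay lower without overlap but did not pass the filter. Ildr1 was not above the control on any array, and Marveld3, the third MARVEL-domain protein of the junction, was above it only in wild-type replicates 2 and 3 (272.5 and 97.6). Ybx3, a junction-linked nucleic acid binding protein and the gene with the highest mean of this list, had 0.08. The most negative difference among the 17 tested genes of the list, chosen after its value was seen, was that of Ildr2, an angulin-family membrane protein, at -1.33 (SE 0.73), with its highest value, 4309, in wild-type replicate 1 and its lowest, 264.3, in Ret-deficient replicate 3.

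**Figure D4:**
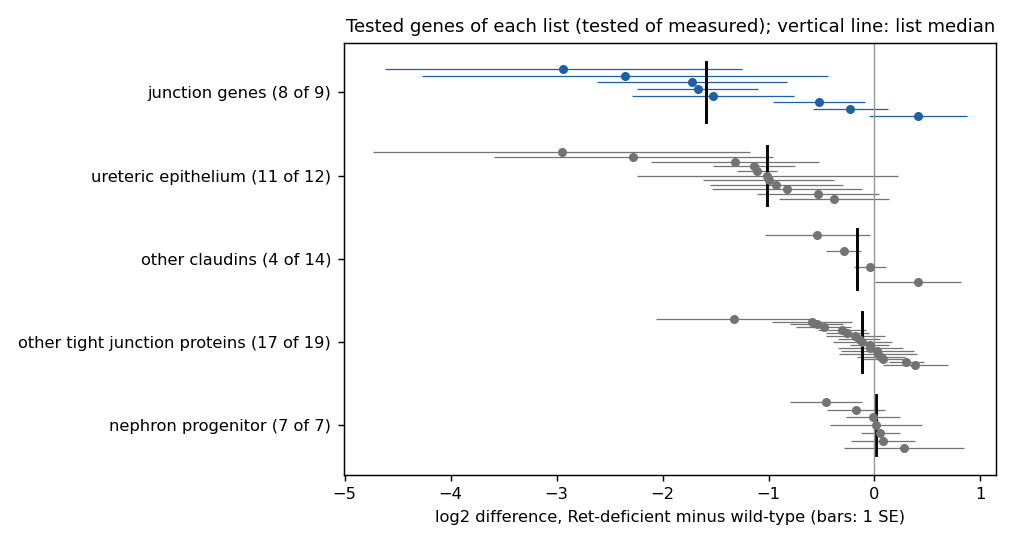
Log2 difference (Ret-deficient minus wild-type) of each tested gene among the 9 junction genes, the ureteric epithelium markers, the other claudins, the other tight junction proteins and the nephron progenitor markers, with bars for 1 SE and a vertical line at each median. The medians are -1.59, -1.01, -0.17, -0.11 and 0.01, and no gene shown passed the adjusted p of 0.05.

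The genes whose 6 values followed the median profile of the 9 most closely were sought among 11584 other tested genes. The nearest was Crb3, an apical polarity protein, with a root mean square difference of 0.20. It read 611.8, 1104.7 and 948.8 in the wild-type replicates and 94.1, 544.2 and 587 in the Ret-deficient replicates, where the lowest value was not above the control (log2 difference -1.40, SE 0.66). The groups did not overlap for Crb3. The next were Grb7, an adaptor of receptor tyrosine kinases, and Ap1m2, a subunit of the epithelial sorting adaptor AP-1B, at 0.20 and 0.25, then Tmed6 (0.27), the keratin gene Krt8 (0.28), the microtubule-binding Map7 (0.30), the protease inhibitor Spint1 (0.32) and Defb19 (0.33). In Ret-deficient replicate 1 Grb7, Ap1m2, Tmed6 and Defb19 were, like Crb3, not above the control. With values raised to the control 3 of these 8 genes (Map7, Crb3 and Grb7) were again among the nearest 8, so the order depends on readings at background. The others were then Kcnk1, Cxcr4, Slc35g1, Fgf9 and Amigo2, and Map7 was the nearest (0.16). The limma adjusted p of the 8 genes nearest as read lay between 0.921 and 0.950, and likeness over 6 arrays is a description only.

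Promoter sequences were taken from RefSeq (GRCm38.p6) to show what stands upstream of the genes with the lowest percentages and of Cldn1, the gene with a positive difference. Of the 9 genes 8 had a window. Those of Cldn3, Cldn6, Cldn7 and Ocln, the genes at 41.7% to 52.3% above, are printed with that of Cldn1, 5′ to 3′ on the strand of the gene and ending at the base before the transcript start. Capitals mark the E-box CAGGTG or its reverse complement CACCTG, a motif bound by Snail and Zeb repressors of epithelial genes, and the GC box GGGCGG or CCGCCC. The windows lie at chr5:134985964-134986213 (plus strand) for Cldn3, chr17:23679115-23679347 (plus strand) for Cldn6, chr11:69964529-69964778 (plus strand) for Cldn7, chr13:100552719-100552968 (minus strand) for Ocln and chr16:26371840-26372089 (minus strand) for Cldn1.
Cldn3: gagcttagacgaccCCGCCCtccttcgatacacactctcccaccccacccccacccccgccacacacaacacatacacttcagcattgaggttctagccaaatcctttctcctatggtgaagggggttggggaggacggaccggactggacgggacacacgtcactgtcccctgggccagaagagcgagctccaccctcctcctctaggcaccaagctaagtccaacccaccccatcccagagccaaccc
Cldn6: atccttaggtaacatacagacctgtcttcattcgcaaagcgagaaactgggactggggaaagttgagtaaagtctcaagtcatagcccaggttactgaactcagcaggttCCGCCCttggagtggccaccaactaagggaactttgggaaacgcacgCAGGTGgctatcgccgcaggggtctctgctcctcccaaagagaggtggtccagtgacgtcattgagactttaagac
Cldn7: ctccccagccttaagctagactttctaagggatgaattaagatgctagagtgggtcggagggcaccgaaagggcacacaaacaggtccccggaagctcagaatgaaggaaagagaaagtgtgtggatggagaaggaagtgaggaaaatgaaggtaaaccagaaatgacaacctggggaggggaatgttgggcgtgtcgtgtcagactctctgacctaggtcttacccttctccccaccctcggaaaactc
Ocln: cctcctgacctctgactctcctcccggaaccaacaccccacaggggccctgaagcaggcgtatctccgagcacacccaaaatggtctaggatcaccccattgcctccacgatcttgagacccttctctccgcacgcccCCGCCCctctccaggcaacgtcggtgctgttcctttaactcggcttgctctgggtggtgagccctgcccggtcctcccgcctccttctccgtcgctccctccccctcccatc
Cldn1: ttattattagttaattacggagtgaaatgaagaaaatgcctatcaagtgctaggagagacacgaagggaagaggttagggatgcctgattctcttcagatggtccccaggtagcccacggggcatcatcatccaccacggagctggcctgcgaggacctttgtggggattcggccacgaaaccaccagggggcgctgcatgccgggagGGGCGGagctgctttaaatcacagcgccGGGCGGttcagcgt
The Cldn6 window holds 233 bases because 17 more lay inside another transcript of the gene and were left out.

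The 250 bases upstream were searched on both strands for 4 motifs, and no base belonged to matches of 2 motifs. Cldn7, Ocln, Marveld2 and Tjp3 had 2 windows each, of which only that of the most upstream start was searched. The percentages below count every window of a gene. The Marveld2 window overlaps the gene Rad17. An E-box stood in 3 of 8 windows (Cldn4, Cldn6 and Tjp3), and in 17.2% of all 32851 windows. A GC box stood in 6 of 8 windows, all but Cldn7 and Tjp3, and in 32.7% of all windows. The grainyhead motif AACCNGTT was in 0 of 8 windows (1.79% of all), and the AP-1 motif TGACTCA stood in Cldn4 alone (4.46% of all). In the windows searched, the genes with the lower values thus shared none of the 4 motifs throughout, since that of Cldn7 held no match. A match of letters is not a bound site, and no binding was measured here.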

How the data were processed

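The authors deposited signal intensities that MAS5 made, per the submitters' processing notes, with its version, scaling target and detection calls not given in the sources used here. The deposited intensities are linear and have the same mean on all arrays once the lowest and highest 2 percent are trimmed. Per the design text RNA was amplified with a NuGEN kit, while the labels' protocol describes standard Affymetrix labelling.

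Values were used as log2(value + 16) without further normalization. Apart from the 64 controls, probe sets were tested whose mean signal over the 6 arrays reached the median of those means (304.5), which kept 22519. Symbols came from the array annotation, updated by gene ID through RefSeq: 34958 probe sets had 1 symbol, 932 several and 9211 none. Groups were compared with limma 3.58.1 in R 4.3.3 (lmFit, eBayes, no trend), with Benjamini-Hochberg adjustment over all tested probe sets and a threshold of 0.05, and tested on simulated data; exact two-sided permutation tests ran over arrays. File reading used data.table (1.17.8); promoters and figures were made in Python 3.11.15 with pandas 2.3.3 and matplotlib 3.10.9. The number of arrays limits the precision.

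The 9 genes and the lists were chosen with earlier results of these data known. Named were all 9 genes with every probe set, Ret, and cell type markers. Of the other claudin and tight junction lists, members whose groups do not overlap or whose mean is highest were named. The 8 genes nearest to the median profile were named, as read and with values raised to the control. Cldn5, Cldn9, Cldn11 and Ildr2 were named after their values were seen. Alternatives were a pseudocount of 1 or 64, no filter, a filter keeping the top 30 percent, median centring, quantile normalization, array weights, an intensity trend, a replicate block, an adjusted p of 0.1, averaging the probe sets of a gene, and each array left out. Leaving out both replicates numbered 1, and raising values under the brightest bacterial control to it, were chosen after seeing the data.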

Additional observations from a re-analysis of the deposited data

How the results depend on the processing

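Among single genes, 117 values of the 9 junction genes kept their direction and side of the threshold under the alternatives. A further 29 kept their direction but had no adjusted p to compare, and 7 turned sign. The values that kept their direction include those with no filter, the stricter filter, the intensity trend and the replicate block. These settings leave the log2 difference of each gene as in the main fit, so its direction could not turn there. Cldn1 gave -0.012 without wild-type replicate 1 (-0.012 to 0.76 with each array left out), -0.084 without both replicates numbered 1 and -0.41 with the mean of its probe sets. Cldn8 gave 0.10 without Ret-deficient replicate 1 (-3.59 to 0.10). Tjp3 gave 0.10 with array weights, 0.030 without wild-type replicate 3 (-0.59 to 0.030) and 0.039 without both replicates numbered 1. Outside the 9 genes, Cldn9 gave -0.055 with array weights and -0.022 without wild-type replicate 1 (-0.022 to 0.67), and Cldn11 gave 0.067 with median centring, 0.011 without Ret-deficient replicate 1 (-0.093 to 0.011) and 0.038 without both. The cause was not tested. Median centring moved the median of all tested genes to 0.12.

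Over the whole array the count of probe sets past the threshold was 2 with median centring, 1 with an intensity trend, 2 with array weights and 0 to 1 with each array left out. Ret passed in limma with median centring (adjusted p = 0.0343), with an intensity trend (adjusted p = 0.0173) and without Ret-deficient replicate 1 (adjusted p = 0.0328). The median of the 9 genes ranged from -1.98 to -0.24 with each array left out, where -0.24 is the value of Cldn4, near background. The count of junction genes whose groups do not overlap was 2 with quantile normalization, against 6.02% of tested genes. It was 2 with the probe sets of a gene averaged (6.69%). With values raised to the control of their array it was 2, a setting for which no share of tested genes is given. It was 7 without wild-type replicate 1 (11.3%), and 1 to 2 with each other array left out (8.33% to 14.1%). Without both replicates numbered 1 it was 7 (18.3%). The counts of 7 include Cldn4, which did not pass the filter on low signals. The deviations of same-numbered samples had correlations of 0.04, -0.04 and -0.11, and those of differently numbered samples -0.20 to 0.22. With 3 arrays a group these values cannot decide whether the numbers pair the samples. The main fit used no pairing. With the replicate number as a block 0 probe sets passed. The median was again -1.52, which a block with 1 array of each group cannot move. Signals near the bacterial control limit Cldn4, the dimmer probe sets of Cldn1 and Cldn3, and Ret-deficient replicate 1 in 4 genes.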

Other observations

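Genes listed here as markers of the induced nephron, the epithelium that forms from mesenchyme beside the bud, gave mixed values in Ret-deficient replicate 1. Of 5 such markers 4 were tested, all with a negative difference and a median of -0.48, and none passed the threshold in limma. Lhx1, a transcription factor of the early nephron, read 2246.5, 3142 and 2797 in the wild-type replicates and 5, 1113 and 1242 in the Ret-deficient replicates, where the lowest value was not above the control. Pax8 read 825.8, 1136 and 662.5 against 218.5, 898.4 and 940.4, and Wnt4 read 1320.6, 2359.7 and 2367 against 897.9, 2169.8 and 1621. In both, Ret-deficient replicate 1 was the lowest array. Jag1, a Notch ligand, read 16093.5, 12182 and 13546 against 11089, 10425 and 12044, with replicate 2 the lowest. Fgf8 was not above the control on any array. Which cells the junction transcripts and those of these markers came from was not tested.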
